A study of Mus musculus with 8 samples.

Results

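Cholesterol and fatty acid synthesis was followed through 35 mouse genes, chosen by symbol: 18 enzymes of the sterol pathway, 6 regulators or sterol transport proteins and 11 genes of fatty acid synthesis. Of these, 32 were measured among 15096 named genes. The choice of genes was made with earlier results of these data known, so their counts against all genes describe these data only. Hmgcs1, Scap and Acat2 had no probe named to them alone. The cells were of the mouse T cell line CTL-EN and expressed the human beta common chain (beta-c) of the GM-CSF receptor, either wild type or with the serine-to-glycine change Ser585Gly. Both populations were kept without factor for 12 h in RPMI with 0.5% serum (0 h) and then stimulated for 12 h with 50 ng/mL of human GM-CSF (12 h). RNA of the 2 populations at both times was compared on 8 2-colour oligonucleotide arrays in 4 direct comparisons, each hybridised in both dye orientations. A pair of comparisons set Ser585Gly against wild type, at 0 h and at 12 h, and the other pair set 12 h against 0 h within each population.

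All groups shared the mouse T cell background, the human receptor chain and the deprivation, and no array held cells kept for those last 12 h without GM-CSF, so time and GM-CSF cannot be told apart. The labels do not say whether each population was a clone or a pool, so differences between populations other than the mutated residue cannot be told apart from the mutation. They name no separate cultures or extracts, so p-values measure the spread between hybridisations only, which may be technical. The human receptor chain had no probe. In bulk RNA, fewer cells with a transcript and less transcript per cell cannot be told apart.

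Cells build cholesterol from acetyl-CoA through mevalonate, farnesyl diphosphate, squalene and lanosterol. When sterol in the endoplasmic reticulum falls, SCAP escorts the SREBP precursors to the Golgi, where they are cut, and the released factors switch on sterol and fatty acid synthesis genes. INSIG proteins hold SCAP back when sterol is plentiful. T cells raise these pathways when they leave rest and need new membrane.

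Over the 8 arrays the median foreground ran from 631 to 946 intensity units for Cy5 and from 795 to 1105 for Cy3. After turning, the 2 arrays of a dye swap correlated over all probes at 0.13 for the mutation at 0 h, 0.22 for the mutation at 12 h, and 0.52 and 0.51 for time in wild type and in Ser585Gly. T cell markers were bright: the 11 measured of 13 lay at a median brightness percentile of 91.3 among probes, and none passed in either comparison of populations. Markers of other cell types were dimmer by median, from 22.2 for adipocyte and hepatocyte genes to 54.2 for myeloid genes. Single ones overlapped the T cell markers in brightness, such as Col1a1 at 86.4, where the dimmest T cell marker, Cd2, lay at 68.6. Apart from 2 myeloid genes, none of these other markers passed between the populations. Those were 2 of 7 measured myeloid markers. Ctsg, a granule protease, had a log2 difference of -2.07 ± 0.17 in Ser585Gly at 0 h and of -2.34 ± 0.17 at 12 h (standard error of the fit, 8 arrays). Fcgr3, an immunoglobulin receptor, was higher by 0.87 ± 0.15 and 0.85 ± 0.15, and with each dye-swap pair averaged it passed at 0 h (adjusted p = 0.0490) but not at 12 h (adjusted p = 0.0670). The part of either in the results below was not tested.

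Probe names follow a print order recovered from the spots, and every gene value rests on it. The measured synthesis genes were mostly bright as well. Their median brightness percentile was 83.0, and 31 of 32 lay above the 95th percentile of empty wells, from the percentile of 40.1 for Insig2 to 97.4 for Scd1. Fads2, a desaturase of polyunsaturated fatty acids, was the exception at 0.95, and its ratios scattered between arrays from -0.99 to 1.05 in the comparison at 12 h. The members' spots were spread over 23 of the 48 blocks of the array.

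The first question was how the populations differed before GM-CSF. At 0 h, 9 of 32 members were higher in Ser585Gly and 0 were lower (limma, adjusted p under 0.05), where 2.14% of all genes were called higher and 2.55% lower. At an unadjusted p under 0.05 the lower count was also 0, against 14.2% of all genes. Of the 9, 8 were enzymes of the sterol pathway. With each dye-swap pair averaged to 1 value, which treats it as 1 replicate, 1 member was called, Msmo1, and 0.457% of all genes were called higher. The median log2 difference of the members was 0.27, against -0.01 over all genes, and 23 of 32 lay above 0. The averaging changes no estimate, only the error.

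The early, mevalonate end of the pathway held 3 of them. Idi1, from the same stretch, had log2 ratios of 0.54 and 1.38 on the direct arrays. Its fit over 8 arrays gave 0.77 ± 0.20 and missed the threshold (adjusted p = 0.0754). Pmvk, the kinase that adds the second phosphate to mevalonate, had log2 ratios of 1.20 and 0.79 on the direct arrays, and the fit over 8 arrays gave 0.87 ± 0.18 (adjusted p = 0.0395). Mvd, the decarboxylase that follows it, had 1.12 and 0.43, with 0.72 ± 0.11 in the fit (adjusted p = 0.0123). Fdps, which makes farnesyl diphosphate, had 0.80 and 0.58, with 0.59 ± 0.12 (adjusted p = 0.0371). Pmvk, Mvd and Fdps had positive normalised ratios of Ser585Gly over wild type on both direct arrays.

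From squalene onward, 5 more were called. Fdft1, squalene synthase, had 0.59 and 0.39, with 0.55 ± 0.10 in the fit (adjusted p = 0.0254). Sqle, squalene epoxidase and a rate-limiting step, had 0.66 and 0.42, with 0.52 ± 0.09 (adjusted p = 0.0254). Lss, which closes the sterol rings to form lanosterol, had 0.91 and 0.54, with 0.67 ± 0.10 (adjusted p = 0.0130). These consecutive enzymes were each above wild type on both arrays. Cyp51, the lanosterol demethylase, had 0.57 and 0.63, the closest pair of the 9, with 0.62 ± 0.09 (adjusted p = 0.0128). Msmo1, the methylsterol monooxygenase, had 0.90 and 0.70, with 0.76 ± 0.10 (adjusted p = 0.00773).

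Srebf2 encodes SREBP2, the factor that acts mainly on sterol genes. Its brighter probe had 0.91 and 0.36, with 0.62 ± 0.11 in the fit (adjusted p = 0.0203). Its other probe, at the brightness percentile of 68.6 against 90.2, had 0.04 and 0.21, with 0.09 ± 0.09 (adjusted p = 0.583). The probes of Srebf2 therefore disagreed, and with their mean the calls at 0 h and 12 h were lost. Srebf1, which encodes the factor acting more on fatty acid genes, had -0.49 and 0.30 on its arrays, with -0.04 ± 0.13 (adjusted p = 0.866). Its dye-swap arrays went in opposite directions, as did those of Mvk, Nsdhl, Scd1 and the brightest probe of Acaca. Each had replicate 1 below 0 and replicate 2 above it. The reverse, replicate 1 above 0 and replicate 2 below it, held for Tm7sf2, Hsd17b7, Dhcr7, Elovl5, Fads1, Fads2 and Me1. The other probes of Acaca were above 0 on both arrays.

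**Figure D1:**
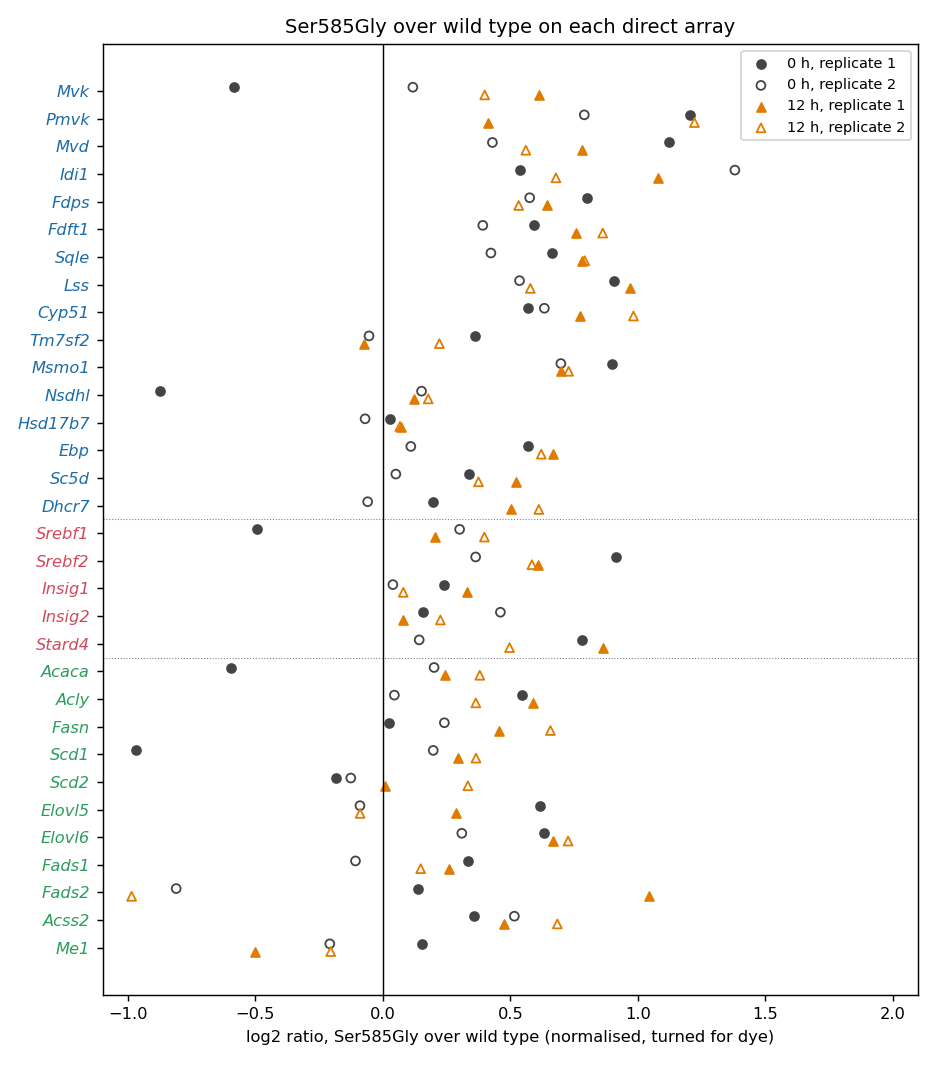
Log2 ratio of Ser585Gly over wild type on each of the 4 direct arrays (x axis) for the 32 measured genes (rows), with filled and open symbols for the dye orientations. Name colours mark sterol enzymes (blue), regulators and transport (red) and fatty acid synthesis (green); 19 of 32 genes lie right of 0 on all 4 arrays, while Fads2 at 12 h spans -0.99 to 1.05.

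After 12 h with GM-CSF, 16 of 32 members were higher in Ser585Gly and 0 were lower, where 1.1% of all genes were called higher and 0.98% lower. At an unadjusted p under 0.05 the lower count was again 0, against 7.34% of all genes. With pairs averaged, 1 member was called, Cyp51 (adjusted p = 0.0412), and 0.417% of all genes were called higher. The adjusted p of the other 15 then ran from 0.0521 for Sqle to 0.150 for Dhcr7. The median log2 difference of the members was 0.53, against -0.02 over all genes, and 30 of 32 lay above 0. The exceptions were Nsdhl, at -0.00057, and Me1, at -0.26. Nsdhl had 0.12 and 0.18 on the direct arrays at 12 h, and its fit also draws on the other arrays. The 0 h and 12 h estimates come from one fit over the same 8 arrays and are not independent.

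Among the sterol enzymes, 11 of 16 measured were called at 12 h, with a median of 0.71. Idi1, which makes the isomer that starts prenyl chains, had the largest difference, 1.08 and 0.68 on the arrays and 1.07 ± 0.20 in the fit, or 2.09-fold (adjusted p = 0.0432). Pmvk had 0.41 and 1.22, with 0.95 ± 0.18 (adjusted p = 0.0433), and so differed most between its arrays among those called. Mvd had 0.78 and 0.56, with 0.72 ± 0.11 (adjusted p = 0.0159). These enzymes act between mevalonate phosphate and the first prenyl units. Fdps had 0.64 and 0.53, with 0.69 ± 0.12 (adjusted p = 0.0298). Mvk, the kinase before Pmvk, had 0.61 and 0.40 on the direct arrays, and the fit, which also draws on the time arrays, gave 0.31 ± 0.17 (adjusted p = 0.512).

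The squalene and lanosterol enzymes lay close together at 12 h. Fdft1 had 0.76 and 0.86, with 0.75 ± 0.10 (adjusted p = 0.00928). Sqle had 0.78 and 0.79, with 0.81 ± 0.09 (adjusted p = 0.00489). Lss had 0.97 and 0.58, with 0.82 ± 0.10 (adjusted p = 0.00675). Their array ratios thus all lay between 0.58 and 0.97. Cyp51 had 0.77 and 0.98, with 0.86 ± 0.09, or 1.82-fold (adjusted p = 0.00340), the smallest p of the members in this comparison. Msmo1 had 0.70 and 0.73, with 0.75 ± 0.10 (adjusted p = 0.00980).

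Later steps were less even. Ebp, the sterol isomerase, had 0.67 and 0.62, with 0.61 ± 0.10 (adjusted p = 0.0270). Dhcr7, the reductase that yields cholesterol, had 0.50 and 0.61, with 0.54 ± 0.10 (adjusted p = 0.0447). Both had missed the threshold at 0 h, at 0.37 ± 0.10 and 0.09 ± 0.10. Sc5d, the desaturase that acts after Ebp, had 0.52 and 0.37 at 12 h, with 0.40 ± 0.11 (adjusted p = 0.151). Tm7sf2, a sterol reductase, Nsdhl and Hsd17b7, which remove a carboxyl group and reduce the ketone in demethylation, were between -0.00057 and 0.16 in the fit at 12 h. None of these last 3 passed at either time.

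Among regulators and transport proteins, 2 of 5 measured were called at 12 h. Srebf2 had 0.61 and 0.58 on its brighter probe, with 0.61 ± 0.11 (adjusted p = 0.0302), while its other probe gave -0.02 ± 0.09 (adjusted p = 0.943). Stard4, which carries cholesterol between membranes, had 0.86 and 0.50, with 0.68 ± 0.11 (adjusted p = 0.0208), against 0.46 ± 0.11 at 0 h (adjusted p = 0.0557). Srebf1 at 0.25 ± 0.13, Insig1 at 0.30 ± 0.18 and Insig2 at 0.13 ± 0.09 did not pass, although each had positive ratios on both arrays.

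Fatty acid synthesis had 3 of 11 called at 12 h and 0 of 11 at 0 h, with medians of 0.21 and 0.09. Fasn, the multifunctional enzyme that builds palmitate, had 0.46 and 0.66, with 0.60 ± 0.09 (adjusted p = 0.0180), against 0.09 ± 0.09 at 0 h. Elovl6, which lengthens palmitate, had 0.67 and 0.73, with 0.74 ± 0.11 (adjusted p = 0.0127), against 0.43 ± 0.11 at 0 h (adjusted p = 0.0613). Acss2, which makes acetyl-CoA from acetate in the cytosol and nucleus, had 0.48 and 0.68, with 0.59 ± 0.10 (adjusted p = 0.0223), against 0.42 ± 0.10 at 0 h (adjusted p = 0.0518). The other suppliers and modifiers did not pass. Acly, which makes acetyl-CoA from citrate, came nearest with 0.59 and 0.36, and 0.53 ± 0.12 in the fit (adjusted p = 0.0725). Acaca, the carboxylase before Fasn, had 0.28 ± 0.13 on its brightest probe and 0.10 ± 0.10 and 0.36 ± 0.10 on its other probes, none of them called. The desaturases Scd1, Scd2 and Fads1 were at 0.21, 0.18 and 0.12, and Elovl5, which lengthens polyunsaturated chains, was at 0.07.

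Over both times, Ser585Gly was above wild type on all 4 direct arrays for 19 of 32 members, where 11.4% of all genes were. It was below on all 4 for 0 members, where 12.4% of all genes were. These 19 included Insig1, Insig2, Sc5d and Acly, which passed at neither time. The 13 that were not above on all 4 were Mvk, Tm7sf2, Nsdhl, Hsd17b7, Dhcr7, Srebf1, Acaca, Scd1, Scd2, Elovl5, Fads1, Fads2 and Me1, and of these Dhcr7, at 12 h, was called between the populations. These counts rest on the brightest probe of each gene. The other probes of Acaca were above on all 4, but 1 of them by only 0.004 on replicate 1 at 12 h. The other probe of Srebf2 was at -0.16 on that array.

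**Figure D2:**
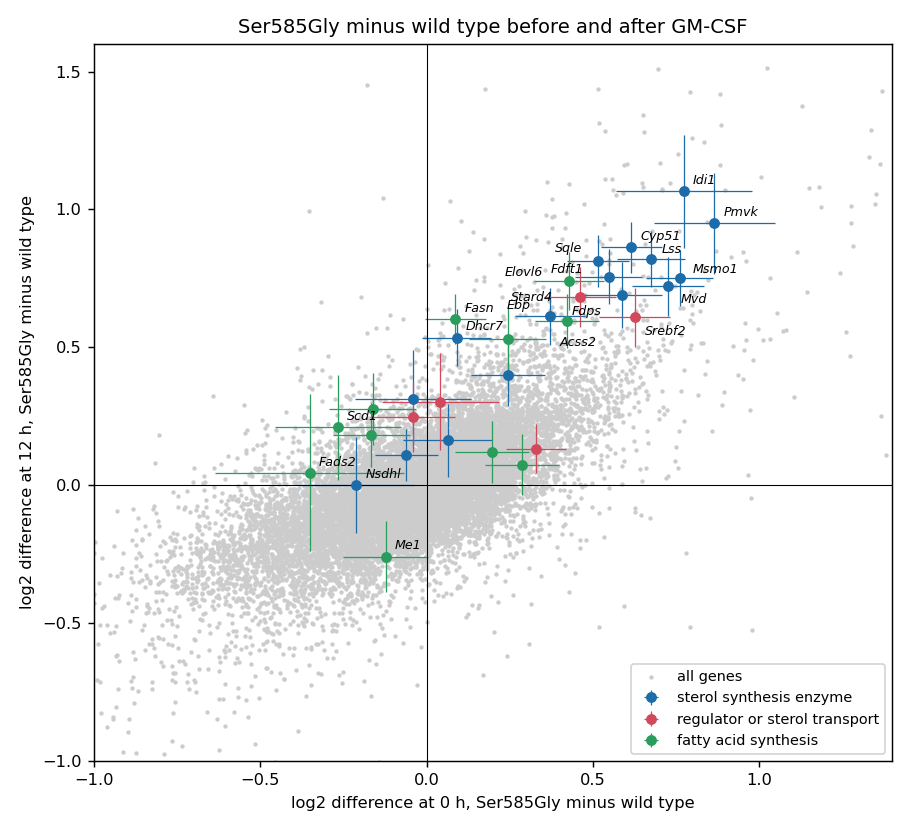
Log2 difference of Ser585Gly minus wild type at 0 h (x axis) and at 12 h (y axis) for all 15096 genes (grey, of which 99 lie outside the axes) and the 32 members by role, with bars of 1 standard error. Sterol enzymes reach 0.87 (Pmvk) on the x axis and 1.07 (Idi1) on the y axis, and Me1 lies lowest at -0.26 on the y axis; both estimates share arrays.

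Promoters of 8 genes called together at 12 h are shown, because SREBP is known to act on sterol genes with the partners NF-Y and Sp1. All 8 hold CCAAT. Idi1, Ebp and Dhcr7, which were called and also hold it, are not shown, nor is the called gene whose window lacks it. The display therefore does not give how common CCAAT is among called genes. RefSeq windows (GRCm38.p6), from 250 bases before the start to 50 after it, existed for 28 of the 35 members and 27025 genes. Stretches upstream of the start are written 5′ to 3′ on the gene's strand, with CCAAT (or ATTGG, the same letters on the other strand) and TCACNCCA in capitals. They lie at chr3:89454395-89454419 (plus strand) for Pmvk, chr8:122443435-122443492 (minus) for Mvd, chr10:76531533-76531557 (plus) for Lss, chr5:4104712-4104736 (minus) for Cyp51, chr8:64733619-64733765 (minus) for Msmo1, chr15:82147097-82147148 (plus) for Srebf2, chr11:120824592-120824647 (minus) for Fasn and chr2:155517960-155517984 (plus) for Acss2.
Pmvk: ctcaggttggCCAATtcacagcatc
Mvd: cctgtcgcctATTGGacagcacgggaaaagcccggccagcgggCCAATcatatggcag
Lss: tgatgctctgATTGGccgagctcgc
Cyp51: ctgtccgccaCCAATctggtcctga
Msmo1: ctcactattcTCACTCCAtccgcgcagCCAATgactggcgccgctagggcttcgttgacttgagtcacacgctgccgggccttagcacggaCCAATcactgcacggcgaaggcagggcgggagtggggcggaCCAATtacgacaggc
Srebf2: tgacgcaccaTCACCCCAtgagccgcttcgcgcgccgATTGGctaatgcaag
Fasn: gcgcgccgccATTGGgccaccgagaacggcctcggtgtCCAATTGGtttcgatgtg
Acss2: cctacccactATTGGatgcctagag

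CCAAT, the letters NF-Y binds, was found on either strand in the windows of 23 of 28 members (82.1%), and in 41.1% of all genes with a window. GGGCGG, the letters of Sp1, was also in 23 of 28 members and in 38.2% of all genes. TCACNCCAC, a sterol response element consensus, was in 1 of 28 members, the unmeasured Hmgcs1, and in 1.44% of all genes. The shorter TCACNCCA, which lies within it and was added after the first search, was in 3 of 28, Hmgcs1, Msmo1 and Srebf2, and in 4.97% of all genes. Of the 16 genes called at 12 h, 12 had a window, of which 11 held CCAAT, 9 GGGCGG, 2 TCACNCCA and 0 TCACNCCAC. Measured members not called at 12 h held both CCAAT and GGGCGG as well. These were Mvk, Tm7sf2, Nsdhl, Hsd17b7, Sc5d, Srebf1, Insig1, Insig2, Acly and Me1. Neither motif was therefore particular to the called genes, and a link between motifs and calls was not tested. In Msmo1, with the smallest p at 0 h, 3 CCAAT lay upstream of the start and the first of them followed TCACNCCA by 9 bases. In Fasn 2 of the 3 overlap as CCAATTGG. Matches describe letters in these windows only, and no binding was measured.

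The next question was what changed between 0 h and 12 h with GM-CSF in wild type. There, 1 of 32 members rose and 3 fell, where 5.99% of all genes were called higher and 4.46% lower and the members' shares were 3.13% and 9.38%. With pairs averaged, 0 rose and 1 fell, against 3.01% and 2.16% of all genes. Their median log2 difference was -0.04, and 14 of 32 lay above 0. Fdps was the one that rose, with 0.40 and 0.42 on the arrays and 0.51 ± 0.12 in the fit (adjusted p = 0.0341). Acss2 fell most, with -1.19 and -0.83 and -0.995 ± 0.10 in the fit (adjusted p = 0.000821, and 0.0126 with pairs averaged). Fdft1 had -0.44 and -0.52, with -0.54 ± 0.10 (adjusted p = 0.0138). Dhcr7 had -0.36 and -0.44, with -0.42 ± 0.10 (adjusted p = 0.0377). Fdps and Fdft1, which make and use farnesyl diphosphate, thus changed in opposite directions. Insig1, itself a target of SREBP in many cells, had -0.56 and -0.82 but missed the threshold at -0.59 ± 0.18 (adjusted p = 0.0744).

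Of the T cell markers, Thy1 and Lat rose and Cd3e and Cd3g fell with time in each population, and the other 7 measured did not pass. Of the markers of other cells, Hba-a1 fell in both, by 0.45 ± 0.10 and 0.49 ± 0.10, and Ctsg rose in wild type, by 0.70 ± 0.17; their part in the members' values was not tested. With pairs averaged, the calls of Cd3e, Cd3g and Ctsg held, and those of Thy1, Lat and Hba-a1 were lost in each population, with adjusted p from 0.0576 to 0.0857.

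In Ser585Gly, 5 of 32 members rose and 1 fell, where 6.7% of all genes were called higher and 4.95% lower. With pairs averaged, 0 rose and 1 fell, against 4.11% and 2.47% of all genes. The median of the members was 0.07, and 24 of 32 lay above 0. Fdps had 0.57 and 0.85, with 0.61 ± 0.12 in the fit (adjusted p = 0.0157). Cyp51 had 0.53 and 0.51, with 0.53 ± 0.09 (adjusted p = 0.00930). Hsd17b7 had 0.50 and 0.29, with 0.36 ± 0.09 (adjusted p = 0.0483). Those were the sterol enzymes that rose. In fatty acid synthesis, Fasn had 0.53 and 0.66, with 0.55 ± 0.09 (adjusted p = 0.00826). Elovl6 had 0.44 and 0.58, with 0.47 ± 0.11 (adjusted p = 0.0271). Acss2 fell here too, with -0.80 and -0.82, and -0.82 ± 0.10 in the fit (adjusted p = 0.00201, and 0.0192 with pairs averaged). Srebf2 came close to the threshold in both populations, at -0.38 ± 0.11 in wild type (adjusted p = 0.0644) and -0.39 ± 0.11 in Ser585Gly (adjusted p = 0.0536). Its other probe gave -0.23 ± 0.09 and -0.35 ± 0.09, so that the probes pointed the same way here.

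**Figure D3:**
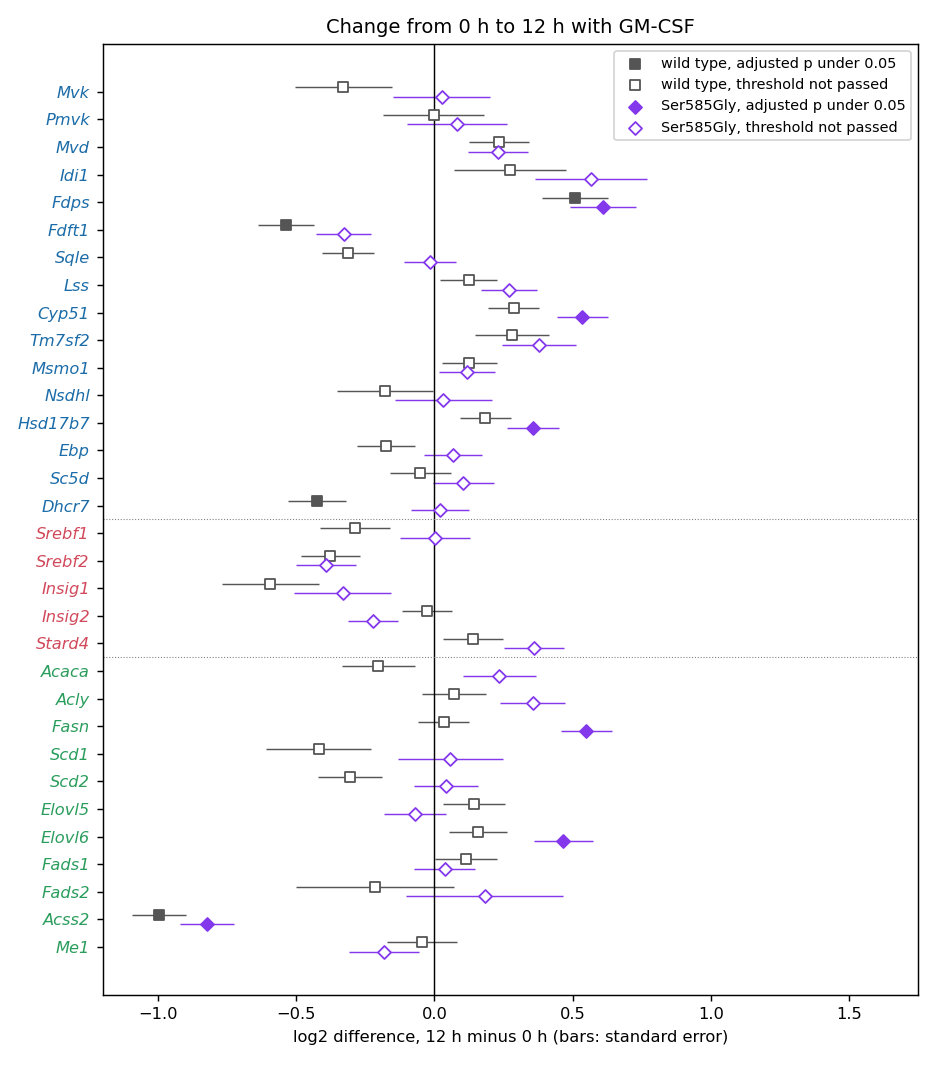
Log2 difference of 12 h minus 0 h (x axis) in wild type (squares) and Ser585Gly (diamonds) for the 32 members (rows), with bars of 1 standard error and filled symbols for an adjusted p under 0.05. Acss2 lies at -0.995 and -0.82, and Fasn at 0.03 in wild type and 0.55 in Ser585Gly.

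Whether the change from 0 h to 12 h differed between the populations was tested by the interaction, which equals the difference at 12 h minus that at 0 h. No member passed in either direction, where 0.0331% of all genes were called higher and 0.0265% lower, and with pairs averaged 0 genes of all were called. At an unadjusted p under 0.05, limma had 7 members above 0 and 0 below, against 4.23% and 3.17% of all genes. The interaction was above 0 for 25 of 32 members, with a median of 0.22 against 0.01 over all genes, of which 52.0% were above 0. Fasn had the largest estimate, 0.52 ± 0.11 (adjusted p = 0.354), and Dhcr7 had 0.44 ± 0.12 (adjusted p = 0.476). For the enzymes called at both times it ran from -0.01 for Msmo1 to 0.30 for Sqle. A p that misses the threshold does not show that the responses were alike. In particular, that Fasn and Elovl6 passed in Ser585Gly and not in wild type was not matched by a call of the difference.

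The lists of other lipid genes give the setting, and their counts stand beside these shares of all genes. Between the populations 2.14% were called higher and 2.55% lower at 0 h, and 1.1% and 0.98% at 12 h. With time, the shares were 5.99% and 4.46% in wild type, and 6.7% and 4.95% in Ser585Gly. Of 28 further genes of sterol metabolism, 16 were measured, and 1 was higher in Ser585Gly at both times and 0 lower. This was Cyb5r3, a reductase that feeds electrons to desaturation, at 0.69 ± 0.09 at 0 h (adjusted p = 0.00911) and 0.71 ± 0.09 at 12 h (adjusted p = 0.00938), and both calls were lost with pairs averaged (adjusted p = 0.0564 and 0.0753). Their medians were 0.11 at both times. With time, 4 rose and 2 fell in wild type, and 3 rose and 2 fell in Ser585Gly. Cyb5b, Tmem97 and Hsd17b12 rose in both populations and Erlin1 in wild type, while Cyb5r3 and Npc2 fell in both. Cyb5b rose most, by 0.63 ± 0.10 and 0.86 ± 0.10, and Npc2, which binds cholesterol in lysosomes, fell by 0.63 ± 0.10 and 0.58 ± 0.10. With pairs averaged, these calls of Cyb5b and Npc2 held in both populations, and those of Tmem97 and Hsd17b12 in wild type were lost (adjusted p = 0.0557 and 0.0758).

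Of 33 further genes of fatty acid and lipid synthesis, 29 were measured, with 2 higher at 0 h and 3 at 12 h, and 0 lower. Lpin1, a phosphatidate phosphatase in the path to triglyceride, had 0.76 ± 0.11 at 0 h (adjusted p = 0.00982) and 0.92 ± 0.11 at 12 h (adjusted p = 0.00494), and it passed with pairs averaged at both (adjusted p = 0.0493 and 0.0342). Idh1, a cytosolic source of NADPH, had 0.60 ± 0.09 and 0.57 ± 0.09, and it did not pass with pairs averaged (adjusted p = 0.0686 and 0.130). Elovl7, a fatty acid elongase called at 12 h at 0.52 ± 0.10, did not either (adjusted p = 0.167). With time, 2 of these 29 rose and 3 fell in wild type, and 3 rose and 3 fell in Ser585Gly. Acsl3, which activates long-chain fatty acids, rose by 1.87 ± 0.14 in wild type and by 1.62 ± 0.14 in Ser585Gly, more than any member. Dgat2, which completes triglyceride, fell by 0.99 ± 0.15 and 0.85 ± 0.15, and Lpin1 fell by 0.87 ± 0.11 and 0.70 ± 0.11. These time calls of Acsl3, Dgat2 and Lpin1 held with pairs averaged.

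The lists for sterol efflux and fatty acid burning were short, and their counts were not tested against the shares of all genes given above. Of 9 LXR target and cholesterol efflux genes 6 were measured, 0 passed between the populations at either time, and their medians were -0.00020 and 0.02. Of 26 fatty acid oxidation genes 23 were measured, with medians of -0.08 and -0.05, and Slc25a20, the carnitine carrier, passed at 0 h, at 0.59 ± 0.11 (adjusted p = 0.0286, and 0.0879 with pairs averaged). With time, Etfb rose by 0.75 ± 0.09 in wild type and by 0.48 ± 0.09 in Ser585Gly, while Acaa2, a thiolase, fell by 0.67 ± 0.13 and 0.50 ± 0.13. Cpt1a, which admits fatty acids to mitochondria, fell by 0.60 ± 0.13 in wild type (adjusted p = 0.0218). With pairs averaged, the wild-type calls of these 3 held, and those of Etfb and Acaa2 in Ser585Gly were lost (adjusted p = 0.0659 and 0.0760). No test compared these lists with the members.

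**Figure D4:**
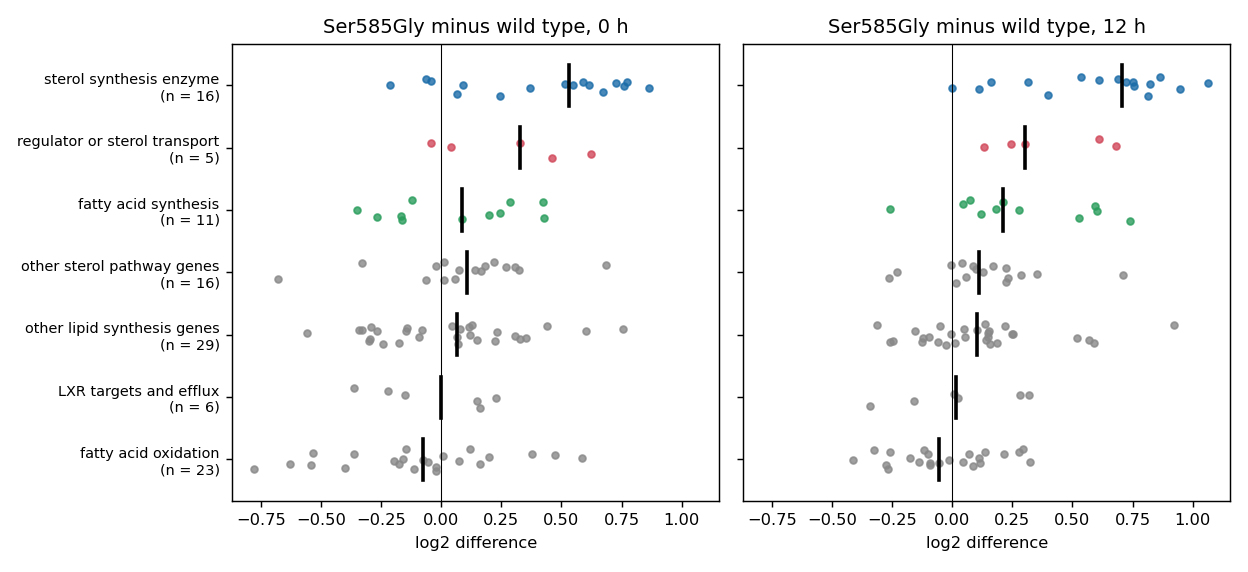
Log2 difference of Ser585Gly minus wild type at 0 h (left) and 12 h (right) for each gene (points) of the 3 roles and the 4 other lists, with black bars at the medians and n the genes measured. The median of sterol enzymes lies at 0.53 and 0.71, that of LXR targets and efflux genes at -0.00020 and 0.02; vertical scatter has no meaning.

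Leaving out single arrays changed the counts. Of 35 calls of members over the comparisons, 2, those of Acss2 with time, remained in all 8 fits that each left out 1 array. At 0 h the count of 9 became 3 and 0 without replicate 1 or 2 of the direct arrays at 0 h, 4 without replicate 2 at 12 h, 5 and 4 without replicate 1 or 2 of time in wild type, and 1 without replicate 1 of time in Ser585Gly. At 12 h the count of 16 became 2 and 0 without replicate 1 or 2 of the direct arrays at 12 h, 7 and 6 without replicate 1 or 2 of time in wild type, and 6 without replicate 1 of time in Ser585Gly. Calls over all genes fell in the same fits. They went from 708 to 245 and 80 without replicate 1 or 2 of the direct arrays at 0 h, and for the 12 h comparison from 314 to 56 and 71 without replicate 1 or 2 of the direct arrays at 12 h. The median difference of the members stayed between 0.25 and 0.34 at 0 h and between 0.50 and 0.60 at 12 h in those fits. Cyp51 kept its 12 h call in all but 1 of them, with estimates from 0.79 to 0.91, and Msmo1 its 0 h call in all but 1, with estimates from 0.64 to 0.82.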

How the data were processed

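The members and the lists of other genes were chosen with earlier results of these data known. The scanner files held intensity values for Cy5 and Cy3 with local background, per the file headers. A table of log2 ratios (Cy5 over Cy3) was deposited by the authors, and the submitters' processing notes name limma. How either was made is not stated by these sources. Scanner spots carry no names, so 21779 gene probes were placed by setting that table against the scanner values (90.3% nearest by values at their spot), and names were assigned in a recovered 24-pin order, since the deposited names follow a 48-pin print. In that order 244 empty wells had a median brightness percentile of 1.34, against 47.5 as deposited. Estimates of the 905 genes with 2 probes correlated at 0.34 for the mutation at 12 h, against 0.02 as deposited. Symbols came from gene identifiers for 15972 probes, from the annotation for 666 and from accessions for 6; 137 had several symbols and 4998 none.

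Intensities were corrected by normexp (offset 50) and normalised by loess (span 0.3, control spots without weight). One limma model (version 3.58.1, R 4.3.3) over the 8 arrays had terms for mutation, time, interaction and dye; residual degrees of freedom were 4 and prior ones 4.36. All tests were two-sided, with Benjamini-Hochberg adjustment over 21779 probes and an adjusted p under 0.05. The brightest probe stood for a gene. The labels name no separate extracts for the arrays of a dye swap, so counts are also given with each pair averaged. Replicate 1 had Ser585Gly or 12 h RNA in Cy5, replicate 2 in Cy3. Every member is named, and those that passed are given with their array values in the comparisons where they passed. The others have a value or range for the populations at 12 h, and in the other comparisons only some do. From each other list, values are given for at most 4 called genes per comparison. The number of arrays limits the precision.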

Additional observations from a re-analysis of the deposited data

Results flagged for a closer look

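For 4 members both arrays of the time comparison went one way in wild type and the other way in Ser585Gly. The mean over 2 arrays of the change from 0 h to 12 h was higher in Ser585Gly than in wild type by 0.35 for Pmvk, 0.18 for Ebp and 0.37 for Acaca, and for Fads1 the difference was -0.25. For Scd2, both arrays of Ser585Gly against wild type were below 0 at 0 h and above 0 at 12 h, and the means differed by 0.33. These mean differences themselves were not tested, and the interaction of the fit over 8 arrays passed for none of these genes, with adjusted p from 0.651 for Acaca to 0.928 for Pmvk.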

How the results depend on the processing

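Over 19 alternatives, 2734 results kept their side of the threshold, 211 were weaker, 76 stronger and 14 reversed. Of the 2734, 186 changed sign without a call in either fit. The count of members called at 0 h (9) was 1 with pairs averaged, 15 with print-tip loess, 16 from the deposited table and 0 in the deposited print order, while calls over all genes went from 708 to 196, 1661, 2017 and 665. The count at 12 h (16) was 1 with pairs averaged and 0 in the deposited order, with 314, 118 and 283 over all genes. The count for time in wild type (4) was 1 with pairs averaged, 8 with print-tip loess, 2 with median centring, 7 with scaling between arrays, 9 from the deposited table and 1 in the deposited order, with 1579 over all genes becoming 780, 3035, 1125, 2006, 3122 and 1452. The count for time in Ser585Gly (6) was 1, 10, 11 and 0 with pairs averaged, print-tip loess, the deposited table and the deposited order, with 1760 over all genes becoming 993, 3280, 3267 and 1629. The interaction had 1 call from the deposited table. Leaving out 1 array gave 0 to 8 at 0 h, 0 to 16 at 12 h, 1 to 7 for time in wild type, 1 to 10 for time in Ser585Gly and 0 for the interaction; for time in wild type every array except replicate 2 of time in Ser585Gly, and for time in Ser585Gly both of its own arrays and replicate 1 at 0 h, moved the count by over 1.5 times. Reversed values in the deposited print order, which puts other probes under these names, were -0.15, -0.025 and -0.036 for Fdps, Fdft1 and Lss at 0 h. At 12 h they were -0.028 for Idi1, -0.10 for Lss, -0.20 for Ebp, -0.042 for Dhcr7, -0.056 for Srebf2 and -0.28 for Acss2. For time in wild type they were -0.032, 0.32 and 0.0016 for Fdps, Fdft1 and Acss2. Srebf1 at 0 h became called, at 0.30 with print-tip loess and 0.27 from the deposited table; the cause was not tested for this or for the counts above. Replicate numbers mark dye orientation, so no fit used them as a block.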
